A study of Saccharomyces cerevisiae with 18 samples.

Results

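Saccharomyces cerevisiae has 3 genes of the ATO family, ADY2 (YCR010C, also named ATO1), ATO2 (YNR002C, also FUN34) and ATO3 (YDR384C). They were matched by symbol, synonym or ORF code in the probe annotation and made up 3 of the 5543 genes and 6 of the 11146 named spots on the arrays, 2 neighbouring spots for each gene. They lie on chromosomes III, XIV and IV. The family defined the choice, with no threshold on a measured value, although earlier results of these arrays were known. RNA from giant colonies of a pair of strains was hybridised together on two-colour spotted ORF arrays, as 3 couples of strains on days 4 and 7 (3 arrays per couple and day, 18 in all). On each array the log2 ratio of the strains was taken from background-subtracted spot intensities and normalised by loess. A ratio written BR-F/BR-S is BR-F relative to BR-S. Within each couple and day, arrays 1 and 2 held the same RNA with dyes exchanged and their mean formed biological replicate 1, while array 3 formed replicate 2.

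BR-F is a wild strain with structured colonies. The domesticated BR-S derives from it and forms smooth colonies, and BR-RF is a feral strain that arose from BR-S under starvation and forms structured colonies again. All were grown on solid yeast extract medium with glycerol and harvested as colonies of 4 or 7 days. The strains are described as isogenic by origin and were given no drug or other treatment, and BR-RF stands for a single subclone. The study also describes partial duplications in the BR-RF genome that involve the left arm of chromosome XV, which holds none of the ATO genes, and a FLO11 gene that differs in length between BR-F and the other strains. A whole colony holds cells of different position and age, so that fewer cells expressing a gene and less mRNA in each cell cannot be told apart. No group is an untreated control, and every value is a ratio of 1 strain to another.

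Ato proteins are membrane proteins of a family found in fungi, bacteria and archaea. Ady2 is known for acetate uptake with protons, is repressed by glucose and was named for its role in spore formation. Like Ato2 and Ato3, Ady2 is also thought to export ammonium. Yeast colonies release ammonia in an alkaline phase of their growth, and the ATO genes are known to be induced in that phase. Structured colonies of wild strains also pass through phases of acid and alkali, and on glycerol acetate metabolism is active because no glucose represses it.

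The 3 genes behaved differently. ATO2 was higher in BR-F than in either of the other strains on both days, by 4.56-fold to 10.7-fold, and was called in 5 of the 6 comparisons. ATO3 had spots brighter than the array median on all 18 arrays. It was called in 0 of 6, although some other settings gave a call. ADY2 was called in 0 of 6 from the array files, where its spots differed greatly in brightness between arrays, and in 3 of 6 from the value table that the authors deposited. Calls were made in limma where the adjusted p was under 0.05, over all genes of a couple and day that both biological replicates measured. At an unadjusted p under 0.05 in limma, ATO3 and ADY2 each passed in 2 of 6. Many genes passed at that level, 1001 of 4959 and 1441 of 4984 in BR-RF/BR-F on days 4 and 7. The counts were 781 of 4350 and 1338 of 4902 in BR-F/BR-S, and 774 of 4506 and 1522 of 4716 in BR-RF/BR-S.

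**Figure D1:**
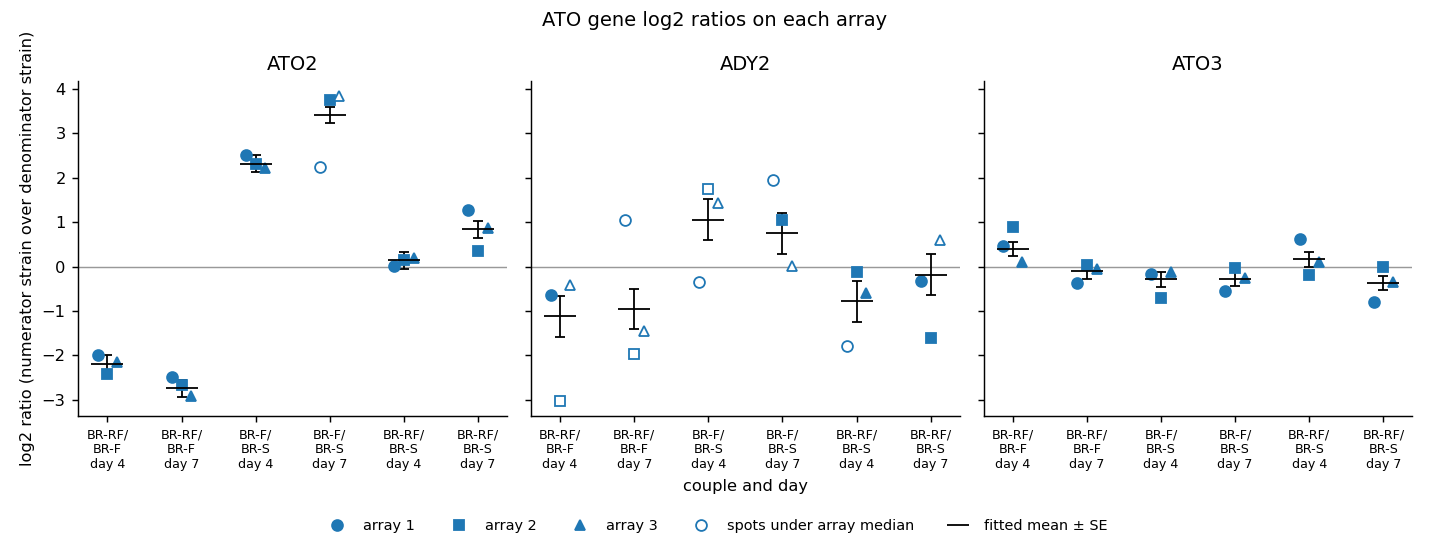
Log2 ratio of ATO2, ADY2 and ATO3 on each array (symbols) for each couple and day on the x axis. The black mark is the fitted mean with its standard error, and open symbols are arrays on which the gene's spots were dimmer than the array median. ATO2 lies above 2 in BR-F/BR-S and at or under -2.0 in BR-RF/BR-F on all arrays, the arrays of ADY2 scatter from -3.02 to 1.95, and those of ATO3 stay between -0.80 and 0.90.

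ATO2 was higher in BR-F than in the smooth strain. On day 4 the log2 ratio of BR-F/BR-S was 2.53, 2.31 and 2.22 on arrays 1, 2 and 3. The fitted mean was 2.32 ± 0.19 (SE, n = 2 biological replicates, with 1 spread for each gene shared by the 6 comparisons), or 4.99-fold, with an adjusted p of 0.000109 in limma. All 3 arrays were above 0, and the gene ranked 24 of 4350 by the size of its ratio, where 4.69% of genes were called. On day 7 the ratios were 2.24, 3.75 and 3.84. The mean was 3.42 ± 0.19, or 10.7-fold, with an adjusted p of 1.30e-05, rank 9 of 4902 and 11.2% of genes called. Array 1 stood apart there, with only 1 usable spot, and without it the mean was 3.79. BR-S was above 2.6 SD of the local background on 1 of these 3 arrays, so the size of the day 7 ratio rests on dim BR-S signals. An array counts as above background where at least 1 of its spots is.

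ATO2 was lower in the feral strain than in the wild strain. On day 4 the log2 ratio of BR-RF/BR-F was -2.0, -2.43 and -2.16 on the 3 arrays. The mean was -2.19 ± 0.19 (adjusted p = 0.000607 in limma, n = 2 biological replicates), which is 4.56-fold lower, and it ranked 14 of 4959 genes, of which 5.89% were called. On day 7 the arrays gave -2.48, -2.68 and -2.91. The mean was -2.74 ± 0.19 (adjusted p = 2.51e-05), 6.69-fold lower and rank 11 of 4984 genes, of which 15.2% were called. Every array of both days was below 0 and the arrays of a day differed by less than 0.5. On day 7 BR-RF was not above 2.6 SD of the local background at spot 2 of array 2 and spot 1 of array 3. Spots 1 and 2 of array 3 gave -3.41 and -2.41, so the size of the day 7 ratio rests in part on dim BR-RF signals. At least 1 ATO2 spot was marked as saturated on 5 arrays, all of which held BR-F RNA. Without saturated spots the BR-RF/BR-F means were -2.22 and -2.92 and both remained called.

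The feral and smooth strains differed little in ATO2 on day 4 and somewhat on day 7. The day 4 ratios of BR-RF/BR-S were 0.018, 0.15 and 0.19, with a mean of 0.14 ± 0.19 (adjusted p = 0.801 in limma, 4.79% of 4506 genes called). The 95% interval of that mean ran from -0.28 to 0.56. On day 7 the ratios were 1.28, 0.36 and 0.86, all above 0 but spread more widely than the other ATO2 ratios. The mean was 0.84 ± 0.19, or 1.79-fold, with an adjusted p of 0.0154 where 15.9% of 4716 genes were called. This call was lost without array 1, at 0.61 (adjusted p = 0.0917), and without array 3, at 0.82 (adjusted p = 0.174). ATO2 is among the genes that the study listed for its colony types from these same arrays, so the arrays are no independent evidence of its direction.

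The couples can be set against each other, because the ratio of BR-RF/BR-S can also be reached through BR-F. For ATO2 that route gave 0.13 on day 4 against 0.14 measured directly, and 0.67 on day 7 against 0.84. The gaps were -0.0065 and -0.17, each smaller than their standard error of 0.33, beside a median absolute gap over all genes of 0.18 on both days. Within each day BR-F was thus highest on the ATO2 scale. The BR-RF/BR-S ratio of day 4 was not called, so BR-RF and BR-S were not ordered on that day.

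The day difference of ATO2 did not pass the test. From day 4 to day 7 the log2 ratio of BR-F/BR-S rose from 2.32 to 3.42 in the fitted means, a difference of 1.10 ± 0.27 (unadjusted p = 0.00195, adjusted p = 0.177 in limma, n = 2 biological replicates a day). The differences in BR-RF/BR-F and BR-RF/BR-S were -0.56 and 0.70, with adjusted p of 0.541 and 0.267. Such day differences were called for 0.311%, 0.523% and 0.352% of genes in BR-F/BR-S, BR-RF/BR-F and BR-RF/BR-S. Array 3 of every couple carried opposite dyes on the days compared, so dye effects of a gene enter these differences.

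The levels of ATO2 in the channels, which come from the same arrays, also had their highest median in BR-F on each day. On day 4 the log2 channel intensity, scaled between arrays, had a median of 15.1 in BR-F (14.3 to 15.3 over 6 channels), 13.1 in BR-RF (11.8 to 13.4) and 12.8 in BR-S (12.6 to 13.3). The BR-F channels lay above all others on that day, while those of BR-RF and BR-S overlapped. On day 7 the medians were 14.2 in BR-F (12.4 to 15.8), 12.7 in BR-RF (11.3 to 13.8) and 11.96 in BR-S (9.98 to 12.9). All 3 ranges overlapped on day 7, where the lowest BR-F channel was on the array with 1 usable ATO2 spot. The 6 channels of a strain and day come from 2 biological replicates and were not tested.

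**Figure D2:**
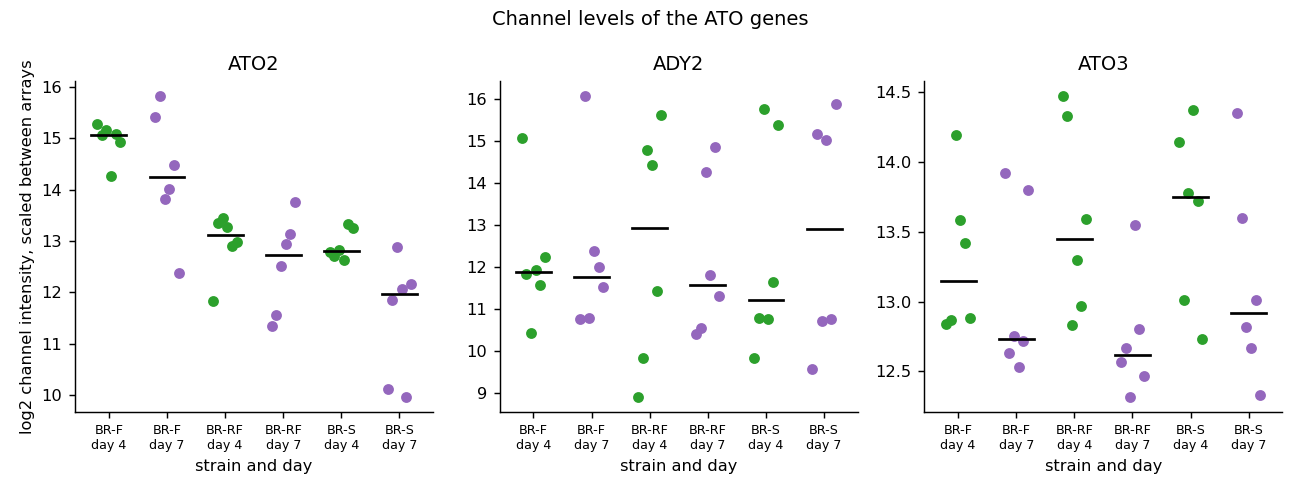
Log2 channel intensity after scaling between arrays (y axis) for each strain and day (x axis), 6 channels each (points) with their median (line). The ATO2 channels of BR-F on day 4 (14.3 to 15.3) lie above those of the other strains, ADY2 falls into high and low channels in every strain, and the ATO3 medians differ little.

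No ATO3 ratio passed the test after adjustment, and 2 of the 6 had an unadjusted p under 0.05. In those comparisons 1001 of 4959 genes (BR-RF/BR-F, day 4) and 1522 of 4716 (BR-RF/BR-S, day 7) passed that level. The ATO3 spots were above background in both channels on 18 of 18 arrays and brighter than the array median on all of them. In BR-RF/BR-F the arrays gave 0.46, 0.90 and 0.11 on day 4 (mean 0.39 ± 0.16, unadjusted p = 0.0350, adjusted p = 0.211 in limma). On day 7 they gave -0.38, 0.046 and -0.055 (mean -0.11, adjusted p = 0.704). In BR-F/BR-S the 3 arrays were below 0 on both days, with means of -0.29 (adjusted p = 0.409) and -0.27 (adjusted p = 0.314). The BR-RF/BR-S means were 0.16 on day 4 (adjusted p = 0.717) and -0.37 on day 7 (unadjusted p = 0.0426, adjusted p = 0.141). The widest 95% bounds of any ATO3 mean were -0.73 and 0.75. A call on ATO3 appeared under some other settings, given under the dependence on processing.

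ATO3 also showed what the dye swap does to a single gene. Arrays 1 and 2 of a couple and day hold the same RNA with the dyes exchanged, yet the ATO3 ratios of BR-RF/BR-S were 0.61 and -0.19 on day 4 and -0.80 and -0.0056 on day 7. Their averages, 0.21 and -0.40, were close to array 3, at 0.11 and -0.35. This was not so everywhere, since on day 4 the average was 0.68 against 0.11 on array 3 in BR-RF/BR-F and -0.44 against -0.13 in BR-F/BR-S. In every couple and day the swap array with the numerator strain in Cy3 gave the higher ATO3 ratio. Array 3 has no swap, so a dye effect of a gene stays in replicate 2. Such an effect enters the fitted means and their spread.

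ADY2 was measured on very uneven spots. Its brightness, the mean log2 intensity of both channels relative to the array median, ranged from -1.86 to 4.11 over the 18 arrays, with a median of -0.70. It was above the array median on 6 arrays, where it lay between 2.58 and 4.11, and below it on 12. The SD of this brightness was 2.16, larger than that of 99.9% of the 4567 genes ranked, whose median SD was 0.575. Both channels were above background on 11 of 18 arrays. The bright arrays were array 1 of BR-RF/BR-F on day 4, array 2 of BR-F/BR-S on day 7, arrays 2 and 3 of BR-RF/BR-S on day 4 and arrays 1 and 2 of BR-RF/BR-S on day 7. In some comparisons arrays of the same RNA fell on both sides, so strain and day alone did not set the brightness. Bright arrays were most frequent in BR-RF/BR-S, at 2 of 3 on each day against 0 or 1 of 3 in the other comparisons. A link with strain was not tested. The spots of PGK1, a glycolytic gene, and SAT4, a kinase gene, stand in the same print block and had SDs of 1.83 and 2.20. These SDs exceeded those of 99.45% and 99.93% of the genes ranked. PGK1 and SAT4 were picked by name and do not stand for the block. What made the spots of ADY2, PGK1 and SAT4 uneven was not tested.

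The ADY2 ratios from the array files scattered accordingly. In BR-RF/BR-F they were -0.64, -3.02 and -0.40 on day 4 and 1.05, -1.96 and -1.46 on day 7. The means were -1.12 ± 0.46 (adjusted p = 0.209 in limma) and -0.96 ± 0.46 (adjusted p = 0.199). In BR-F/BR-S they were -0.35, 1.74 and 1.42 on day 4 and 1.95, 1.04 and 0.012 on day 7, with means of 1.06 (adjusted p = 0.253) and 0.75 (adjusted p = 0.327). In BR-RF/BR-S they were -1.80, -0.13 and -0.59 on day 4 and -0.31, -1.61 and 0.60 on day 7, with means of -0.78 (adjusted p = 0.459) and -0.18 (adjusted p = 0.824). Dye-swap arrays of the same RNA differed in sign in 2 of the 6 comparisons. The standard error of 0.46 was above the 0.19 that was the median over all genes.

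The value table deposited by the authors, with their own LOWESS normalisation, held other ratios for the dim ADY2 spots. On the 6 bright arrays the table and the array files differed by 0.0029 to 0.174 on the log2 scale, and on the 12 dim arrays by 0.179 to 3.52 (median 1.22). Over all genes, 0% to 1.24% of genes on an array differed by more than 1 between the sources. For ATO3 the largest such difference was 0.0556 and for ATO2 it was 0.51. Where the table's values for these spots came from is not given in the sources used here.

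The ADY2 means of the value table, like those of the array files, had the sign of ATO2 in both couples with BR-F. In the table the BR-RF/BR-F ratios of ADY2 were -0.82, -1.45 and -1.14 on day 4 and -2.46, -2.26 and -1.64 on day 7, all below 0. In limma their means were -1.13 ± 0.26 (2.19-fold lower, adjusted p = 0.0266) and -2.0 ± 0.26 (4-fold lower, adjusted p = 0.000570), where 6.83% and 16.4% of genes were called from the table. By the array files BR-RF was above background at ADY2 on 2 of 3 arrays on day 4 and on 1 of 3 on day 7, so these folds rest on dim BR-RF signals. The BR-F/BR-S ratios were 0.96, 1.30 and -0.13 on day 4 (mean 0.50, adjusted p = 0.352) and 1.12, 0.89 and 1.30 on day 7 (mean 1.15, 2.22-fold, adjusted p = 0.0154, 12.6% of genes called, against 5.89% on day 4). The BR-RF/BR-S means were -0.48 (adjusted p = 0.413) and -0.73 (adjusted p = 0.0784), with all 3 arrays below 0 on each day and 5.39% and 17.2% of genes called. Through BR-F the table's ADY2 ratio of BR-RF/BR-S was -0.64 on day 4 and -0.85 on day 7, 0.16 and 0.12 below the direct values. In the array files the gap was 0.72 on day 4 and -0.024 on day 7, each smaller than its standard error of 0.80. No ADY2 array of the table changed sign between dye-swap arrays. The sources thus differ in the ADY2 call in 3 of 6 comparisons, and for ATO2 and ATO3 in 0. A rule of at least 1.5-fold with an unadjusted p under 0.05, as the study's methods set a 1.5-fold limit, called ADY2 from the array files in 2 of 6 (BR-RF/BR-F and BR-F/BR-S, both on day 4). That rule called 11% and 19% of all genes in BR-RF/BR-F on days 4 and 7, 9.82% and 15.5% in BR-F/BR-S, and 9.72% and 19.8% in BR-RF/BR-S.

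**Figure D3:**
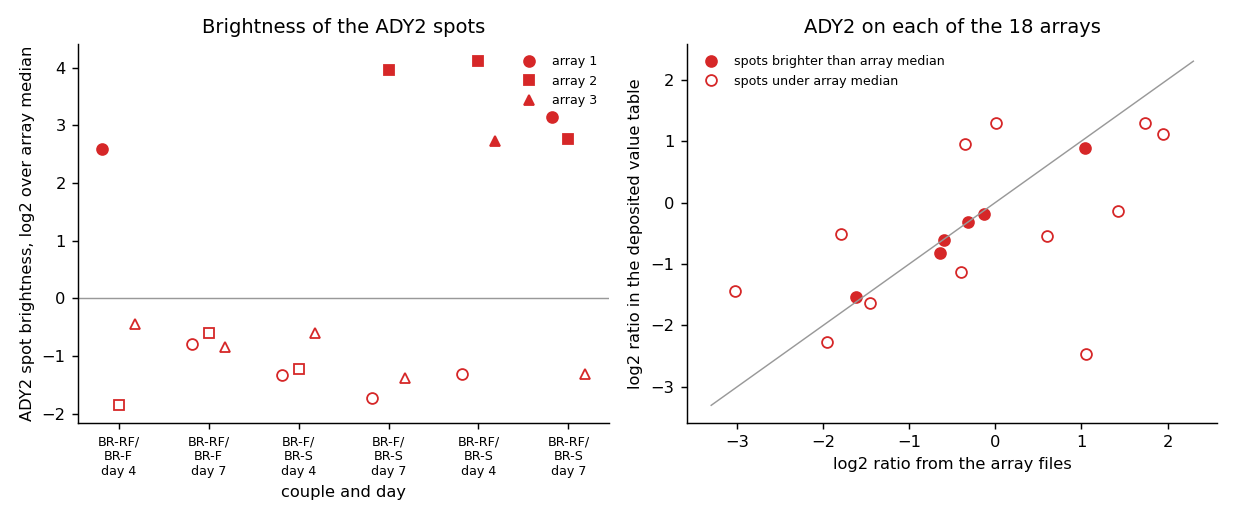
Left, brightness of the ADY2 spots (y axis, log2 over the array median) on each array by couple and day (x axis), with 6 arrays above 2.5 and 12 below 0. Right, the ADY2 log2 ratio in the deposited value table (y axis) against that from the array files (x axis), where the 6 bright arrays (filled) lie on the line of equality and the 12 dim ones (open) do not.

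The ATO genes are similar in sequence, and a spotted ORF can bind transcripts of a close relative, in particular between ADY2 and ATO2. Such cross-hybridisation was not tested, and sequences were not analysed here.

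Ammonium enters yeast through the Mep permeases. Of the 3 genes, MEP2, the high affinity permease, was higher in BR-F than in BR-S by 1.41 ± 0.28 on day 4 and by 3.54 ± 0.28, or 11.7-fold, on day 7 (adjusted p = 0.0203 and 0.000152 in limma, n = 2). It was also higher in BR-RF than in BR-S on day 7, by 2.45 ± 0.28 (5.46-fold, adjusted p = 0.000946). In BR-RF/BR-F it was lower on day 4, at -1.13 ± 0.28 (adjusted p = 0.0479), and measured -0.57 on day 7 (adjusted p = 0.217). MEP1 was higher in BR-F/BR-S on day 7, by 0.90 (adjusted p = 0.0174), and MEP3 was lower in BR-RF/BR-F on day 7, at -0.71 (adjusted p = 0.0382). MEP2 in BR-RF/BR-S on day 4, and MEP3 against BR-S on both days, were measured in 1 biological replicate and were not tested. On day 7 MEP2 was therefore high in both structured strains against BR-S, with a BR-RF/BR-F ratio nearer 0 than that of ATO2 (-2.74). ATO2 was also higher in BR-RF/BR-S on day 7, by 0.84. The difference between these genes was not tested.

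Ammonium is taken into glutamate and glutamine by the enzymes of the GDH, GLT1 and GLN1 genes. GDH1 and GDH3, the NADP-dependent glutamate dehydrogenases that bind ammonium, were higher in BR-F than in BR-S by 1.34 and 0.95 on day 4 and by 1.58 and 1.74 on day 7 (adjusted p = 0.00137, 0.0218, 0.000541 and 0.000721 in limma). Both were lower in BR-RF than in BR-F, at -1.05 and -1.14 on day 4 and -0.98 and -1.28 on day 7. GDH1 and GDH3 are close paralogs whose spots may share signal. GLN1, glutamine synthetase, was lower in BR-RF/BR-F on both days (-0.70 and -0.61, adjusted p = 0.0355 and 0.0330) and higher in BR-F/BR-S on day 7 (1.38, adjusted p = 0.000910). GDH2, which releases ammonium from glutamate, and GLT1, glutamate synthase, were called in 0 of their comparisons, with GDH2 between -0.50 and 0.33.

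Over all genes tested, 2.82% were called higher and 3.07% lower in BR-RF/BR-F on day 4, and 7.8% and 7.44% on day 7. The shares were 2.97% and 1.72% in BR-F/BR-S on day 4, 6.08% and 5.1% on day 7, 2.97% and 1.82% in BR-RF/BR-S on day 4, and 7.27% and 8.61% on day 7. Of the 5 genes of assimilation, 3 were lower in BR-RF/BR-F on each day, with list medians of -0.70 and -0.61 beside medians of -0.0046 and -0.014 over all genes. In BR-F/BR-S 2 were higher on day 4 and 3 on day 7, with medians of 0.33 and 1.38. In BR-RF/BR-S 0 were called on either day in limma, where GDH3 and GLN1 had an unadjusted p under 0.05 on each, and the medians were -0.36 and 0.34.

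**Figure D4:**
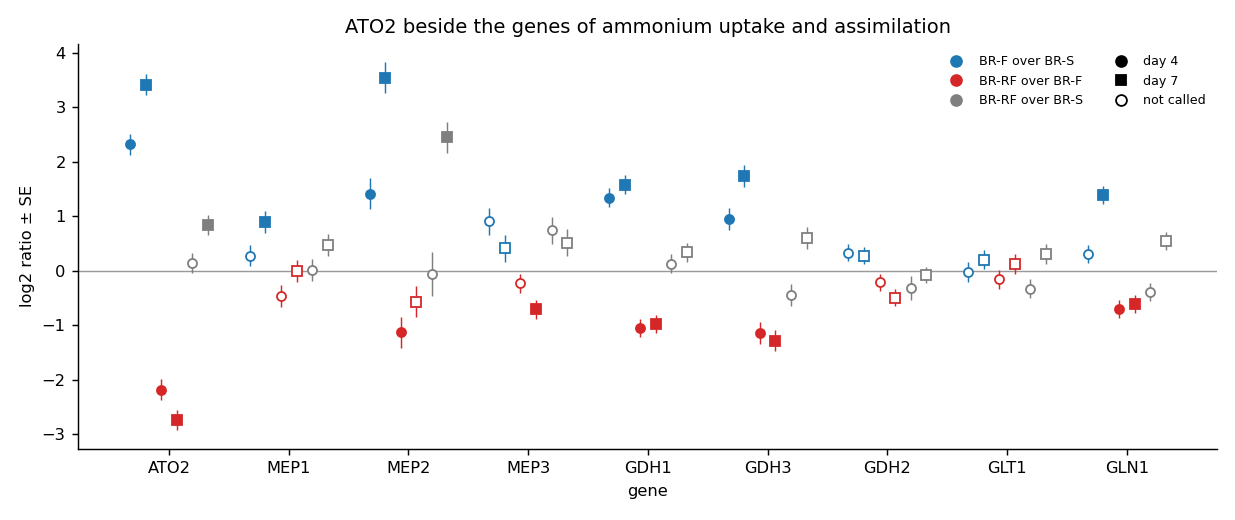
Log2 ratio with its standard error (y axis) of ATO2 and of the genes of ammonium uptake and assimilation (x axis) in the 3 couples (colours) on day 4 (circles) and day 7 (squares). Open symbols were not called or not tested; ATO2, MEP2, GDH1 and GDH3 lie above 0 in BR-F/BR-S, and MEP2 reaches 3.54 on day 7.

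Genes that form and use acetate showed a like direction in part. Of 18 such genes, 17 were tested in BR-RF/BR-F on day 4 and 5 were lower (ACH1, CIT2, ICL1, YAT2 and FBP1), with a list median of -0.74. On day 7, 9 of 17 were lower and 1, MDH2, was higher, with a median of -0.91. In BR-F/BR-S 6 of 18 were higher on day 4 and 4 of 17 on day 7, with medians of 0.61 and 0.57, and 0 were lower. In BR-RF/BR-S 1 was higher and 1 lower on day 4, and 1 was higher and 5 lower on day 7, with medians of 0.028 and -0.30. The medians over all genes lay between -0.014 and 1.92e-05 in these comparisons.

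Among them ACH1, which transfers coenzyme A to acetate in mitochondria, changed most like ATO2 in size. Its BR-F/BR-S ratio was 1.98 ± 0.26 on day 4 and 2.32 ± 0.26 on day 7 (adjusted p = 0.00248 and 0.000810 in limma). In BR-RF/BR-F it was -1.79 and -2.07 (adjusted p = 0.00580 and 0.000994). FBP1, fructose-1,6-bisphosphatase of gluconeogenesis, measured 1.70 and 1.36 in BR-F/BR-S and -1.13 and -2.15 in BR-RF/BR-F, and was called in these 4 comparisons. CIT2, the peroxisomal citrate synthase, was lower in BR-RF/BR-F on either day (-1.59 and -1.86) and in BR-RF/BR-S on day 7 (-1.68, adjusted p = 0.00945). PCK1, phosphoenolpyruvate carboxykinase, was lower in BR-RF on day 7 against BR-F (-1.52) and against BR-S (-2.04, 4.11-fold, adjusted p = 0.000879). MDH2, cytosolic malate dehydrogenase, was higher in BR-RF than in BR-S on both days (0.82 and 1.02), and lies on the left arm of chromosome XV, whose part in its ratio was not tested. ACS1, acetyl-CoA synthetase, had ratios of 1.13 and 0.70 in BR-F/BR-S and was not called in any comparison.

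Of the other acid carriers, JEN1, the lactate and pyruvate permease, was higher in BR-F/BR-S on day 7 (1.14, adjusted p = 0.00483) and lower in BR-RF/BR-F on day 7 (-1.28, adjusted p = 0.00190). PDR12, an exporter of weak organic acids, exceeded its BR-S level in either structured strain, by 1.09 and 0.90 in BR-F and by 1.60 and 0.63 in BR-RF on days 4 and 7. TPO3, a polyamine exporter, was higher in BR-F/BR-S (0.72) and lower in BR-RF/BR-F (-0.71) on day 7, and TPO2 was lower in BR-RF/BR-S on day 4 (-0.85). PDR12 thus differed from ATO2 in being high in the feral strain on day 4 as well.

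**Figure D5:**
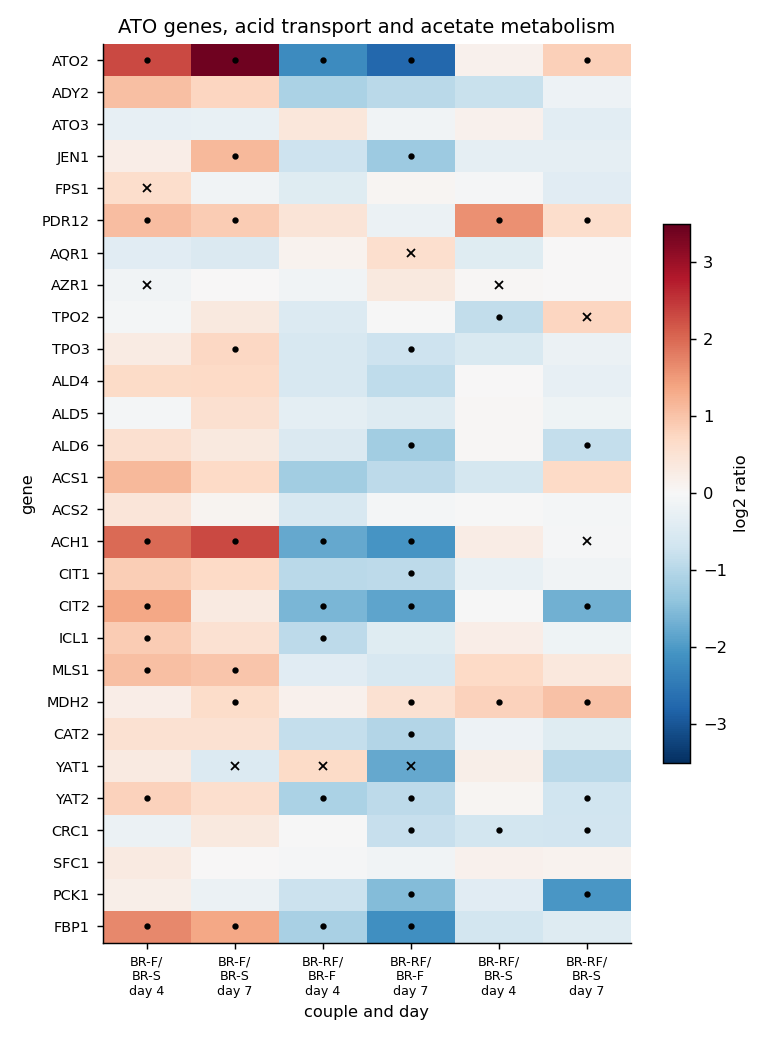
Log2 ratio (colour) of the ATO genes, acid carriers and acetate genes (rows) in each couple and day (columns). A dot marks a called gene and a cross a gene that was not tested; ACH1 and FBP1 follow ATO2 up in BR-F/BR-S and down in BR-RF/BR-F, while PDR12 and MDH2 are up in both strains against BR-S on day 7.

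Regulators of these genes were mostly not called. Of 15, HAP4, the regulatory subunit of the activator of respiration genes, was lower in BR-RF on day 7 against BR-F (-0.74) and BR-S (-1.67, adjusted p = 0.000797 in limma). DAL80, a GATA repressor of nitrogen genes, was higher on day 7 in BR-F/BR-S (1.60) and BR-RF/BR-S (1.85, adjusted p = 0.0463 and 0.0218). Its BR-F/BR-S ratio was not called on day 4, yet the ratio of day 7 minus that of day 4 was only 0.011 ± 0.62. CAT8, ADR1, GLN3, GAT1, GCN4, SOK2 and HAA1 were among the 13 others, for which limma made 0 calls in the comparisons that tested them. Of the 15 regulators, 13 and 14 were tested in BR-RF/BR-F on days 4 and 7. In BR-F/BR-S 11 and 14 were tested, and in BR-RF/BR-S 11 and 13. Sporulation markers went both ways. Of 13 on the arrays, 8 were tested in BR-RF/BR-F on day 4, with 0 higher, 2 lower and a median of -0.28, and 9 on day 7, with 1 higher, 2 lower and a median of -0.0081. In BR-F/BR-S 1 was higher and 1 lower of 8 on day 4 (median -0.15), and 2 were higher of 9 on day 7 (median 0.28). In BR-RF/BR-S 1 of 5 was lower on day 4 and 0 of 7 were called on day 7 in limma, where SPS4 and SPS100 had an unadjusted p under 0.05. IME1, the inducer of meiosis, was lower in BR-RF/BR-F on both days (-1.04 and -1.16) and higher in BR-F/BR-S on day 7 (1.27). SPS19, a peroxisomal reductase gene also used in fatty acid breakdown, was higher in BR-F/BR-S (0.66 and 1.31) and lower in BR-RF/BR-F (-0.83 and -1.23). SPS4 was higher in BR-RF/BR-F on day 7 (0.81, adjusted p = 0.0400), and SPS100 was lower than in BR-S on day 4 in both structured strains (-1.65 and -1.27). IME2, a meiotic kinase gene, was not called in the 3 comparisons that tested it and was measured in 1 biological replicate in the others, at -1.46 and -1.33 in BR-RF/BR-S on days 4 and 7. NDT80, an activator of meiotic genes, was not called in 4 and was not tested in BR-RF/BR-F and BR-RF/BR-S on day 4.

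Across the 12 biological replicate ratios, the genes with the pattern most like ATO2 were PAU1 (uncentred r = 0.976), ASN1 (0.974), GDH1 (0.965), PAU16 (0.960) and GDH3 (0.957), among 3831 genes measured in every ratio. PAU1 and PAU16 are seripauperins of a large family of near-identical copies, so their spots cannot be assigned to 1 gene, and ASN1 encodes asparagine synthetase. In all, 58 genes had r above 0.9 with ATO2, 5 with ADY2 and 0 with ATO3. Between the members r was 0.681 for ATO2 and ADY2, -0.579 for ATO2 and ATO3 and -0.54 for ADY2 and ATO3. These ratios share the RNA of the same strains and are a description.

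BSC1, a relative of the flocculin gene FLO11, was higher in both structured strains than in BR-S on both days (3.63 to 4.81 on the log2 scale). The study listed BSC1 for structured colonies from these same arrays, so it is no independent check of the labels. FLO11 itself measured -0.27 to 0.21 and was not called in the 4 comparisons that tested it. In BR-F/BR-S and BR-RF/BR-S on day 4 FLO11 was measured in 1 biological replicate and was not tested. By northern blot the study found FLO11 mRNA in BR-F and BR-RF and only low levels in BR-S. The array ratios of FLO11 did not show that difference. Between 8040 and 10292 named spots were usable on an array, biological replicates correlated across genes at r = 0.355 to 0.757, and the median standard error of a ratio was 0.19. Such r values run across genes, which do not replicate each other, and precision is limited by the 2 biological replicates of each comparison.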

How the data were processed

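The authors quantified 13056 spots per array in TIGR Spotfinder, and the deposited files give median Cy3 and Cy5 intensities with local background subtracted and no other normalisation. The log2 ratios (Cy5 to Cy3) of the deposited value table had gone through the authors' LOWESS in TIGR MIDAS, and its columns were put in probe order first (17 listed the 48 print blocks by column, 1 by row). Spots flagged as poor or without positive signal in both channels were left out, loess had a span of 0.3, spots of a gene were averaged, and ratios were turned to BR-RF/BR-F, BR-F/BR-S or BR-RF/BR-S. The 12 biological replicate ratios entered lmFit and eBayes of limma 3.58.1 under R 4.3.3, 1 mean per couple and day (6 residual degrees of freedom), two-sided, with Benjamini-Hochberg adjustment. All 3 arrays are called biological replicates in the methods, but the design text of the series pairs arrays 1 and 2 as a dye swap, which was followed. Whether the biological replicates came from separate cultures is not stated, so p-values measure the spread between these samples. Channel levels were scaled by Aquantile. The script for the fit was tested on simulated data. Named were the members, called genes of 6 lists and transporters or regulators of like role, the 5 genes most like each member, and their chromosomal neighbours. Gene names and neighbours came from a RefSeq table. Sequence features were planned but not computed. The members and lists were chosen with earlier results of these data known.

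Alternatives were median centring, loess within print blocks, the value table, other spot filters, arrays as replicates with and without a dye term, a replicate block, the couple and day alone, a joint fit around the loop, a 1.5-fold rule with an unadjusted p under 0.05, and each array left out.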

Additional observations from a re-analysis of the deposited data

How the results depend on the processing

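ATO2 kept its direction in all 96 alternative values of its 6 ratios, and its calls in BR-F/BR-S and BR-RF/BR-F held under every alternative run. Its BR-RF/BR-S call on day 7 was lost without array 1 or array 3 (0.61 to 1.07 over the arrays left out). Calls on ADY2 and ATO3 depended on the processing, and the cause was not tested. For ADY2 in BR-RF/BR-F on day 4, the value table gave -1.13, a dye term with each array as a replicate -1.67, the joint fit around the loop -1.36 and the 1.5-fold rule -1.12, all past their thresholds. On day 7 the table gave -2.0 and the couple and day alone -0.96, with -1.71 to -0.20 over the arrays left out. In BR-F/BR-S, day 4 was called with the couple and day alone and under the 1.5-fold rule (1.06 in both), and day 7 in the table (1.15) and with a dye term (1.32). ADY2 had 0 calls among spots brighter than the array median, a setting chosen after seeing the data, with -0.64, 1.04, -0.36 and -0.96 where it could be measured (BR-RF/BR-F on day 4, BR-F/BR-S on day 7 and BR-RF/BR-S on days 4 and 7). ATO3 was called in BR-RF/BR-F on day 4 with loess within print blocks (0.55), a dye term (0.56) and the joint fit (0.41), in BR-F/BR-S on day 4 with loess within blocks (-0.46), and in BR-RF/BR-S on day 7 with the joint fit (-0.38) and among the arrays left out (-0.57 to -0.18). Day differences were called for ATO3 in BR-RF/BR-F with a dye term (-0.77), and for ATO2 under the 1.5-fold rule in BR-F/BR-S (1.10) and BR-RF/BR-S (0.70). For ATO2 in BR-F/BR-S they were also called with bright spots alone (1.43) and among the arrays left out (0.68 to 1.47). Values without a call changed sign in 16 ADY2, 0 ATO2 and 6 ATO3 cases. Calls over all genes were not counted for the joint fit or for bright spots alone, so calls under them have no background share.

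The genes called numbered 292, 760, 204, 548, 216 and 749 in BR-RF/BR-F, BR-F/BR-S and BR-RF/BR-S, days 4 and 7 of each in turn. On day 4 in that order of couples they were 439, 375 and 327 with loess within blocks, 588, 539 and 487 with a dye term, 547, 427 and 438 under the 1.5-fold rule and 55, 366 and 109 with the couple and day alone. With each array as a replicate BR-F/BR-S and BR-RF/BR-S gave 327 and 359. On day 7 a dye term gave 1403 in BR-RF/BR-F and 1286 in BR-F/BR-S, and the couple and day alone gave 881 in BR-F/BR-S and 1491 in BR-RF/BR-S. Over the arrays left out the counts ran from 59 to 308, 486 to 906, 75 to 245, 93 to 577, 95 to 230 and 131 to 1089, the lowest being without array 3 in each, where 1 biological replicate remains and is assumed to vary like the others.

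With the biological replicate number as a replicate block 0 calls on the members changed, and 163 to 671 genes were called against 204 to 760 without it. Same-numbered replicates shared only a number, since their deviations correlated at -0.54 to 0.32 over 15 pairs of comparisons, above 0.1 in 3. Depth limits ATO2 in BR-S on day 7, some ATO2 spots of BR-RF on that day, and ADY2 on 12 arrays, where signals were dim.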

Other observations

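The neighbours of the ATO genes on the chromosomes were mostly not called. Next to ATO2, CIT1, mitochondrial citrate synthase, was lower in BR-RF/BR-F on day 7 (-0.91, adjusted p = 0.0338 in limma), against -2.74 for ATO2. Beside ATO3, RPP2B, a ribosomal stalk protein, was called in 5 of 6 comparisons, higher in BR-RF/BR-F by 1.34 on day 4 and 1.25 on day 7 and lower in BR-F/BR-S on day 7 (-0.90), and EFT2, elongation factor 2, was higher in BR-RF/BR-F on day 7 (0.66). EFT2 has a near-identical copy in the genome, so its spots cannot be assigned to 1 gene.

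The genes most like ADY2 over the 12 ratios of the array files were LEU4 (uncentred r = 0.918), AVT4 (0.917), PBN1 (0.915), CIT1 (0.91) and ACS1 (0.908). LEU4 and ACS1 use or make acetyl-CoA, and the ADY2 ratios behind these values include the 12 dim arrays. Those most like ATO3 were CSE1 (0.896), SBE22 (0.834), MOT3 (0.832), SOL1 (0.826) and ADE4 (0.824), all with ratios between -0.77 and 0.55. As mirror images of ATO2, the ribosomal protein gene RPL9A and PAB1, the poly(A) binding protein gene, had r of -0.954 and -0.947, with RPL9A at -0.49 and -0.72 in BR-F/BR-S and at 0.30 and 0.80 in BR-RF/BR-F.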
